A study of Mus musculus with 8 samples.

Results

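A set of 5 chemokine receptor genes, Ccr1, Ccr2, Ccr3, Ccrl2 and Cx3cr1, were followed in the chromatin of alveolar macrophages (AMs), the macrophages of the airspaces. The members of the comparison were all accessible regions that overlapped the body of 1 of these 5 genes or the 20 kb on either side of it, in mm10 with GENCODE M21 gene models. This gave 60 regions out of 82424 in the whole data set. Of these, 10 lay in the Ccrl2 window, 27 in the Cx3cr1 window, 9 in the Ccr1 window, 5 in the Ccr3 window and 9 in the Ccr2 window. The rule used the positions of the genes and no measured value, but the genes were chosen with earlier results of these data known.

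Open chromatin was mapped by ATAC-seq, an assay that inserts sequencing adapters with a transposase where DNA is accessible, in AMs sorted from the bronchoalveolar lavage of C57BL/6J mice of both sexes, adult by the labels and 9 weeks old in the study's text. The labels call the cells AMs. The study's Results and main figure legends call them mature AMs (CD11b-/SiglecF+), while some legends of a supplementary figure call the KO cells immature AMs. A difference in maturity between the sorted cells therefore cannot be told apart from the genotype. Of 8 libraries, 4 came from Cd11cCre+ Rxrab fl/fl mice (KO), in which the nuclear receptors RXRα and RXRβ are deleted in cells that express CD11c, and 4 came from Cre-negative Rxrab fl/fl littermates (WT), so both genotypes carry the floxed alleles. The Cre is driven by the CD11c promoter, which is active in AMs and also in dendritic cells. The KO libraries were replicates 1_2, 1_3, 2 and 3, the WT libraries were replicates 1_2, 1_3, 3 and 4, and values per library are given below in this order. The sources used here do not say whether replicates 1_2 and 1_3 share an animal, so p-values measure the spread between libraries, part of which may be technical.

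Chemokine receptors are membrane proteins that steer leukocytes along gradients of chemokines. CCR2, the receptor for CCL2, CCL7 and CCL12, drives the exit of classical monocytes from bone marrow, and CX3CR1, the receptor for the membrane-bound chemokine CX3CL1, marks patrolling monocytes and many tissue macrophages. CCR1 binds CCL3, CCL5, CCL6 and CCL9, CCR3 is the eotaxin receptor best known from eosinophils, and CCRL2 binds chemerin and is thought not to signal in the usual way. RXRs bind DNA mostly as partners of other nuclear receptors, with PPARγ at AGGTCA half-sites spaced by 1 base (DR1) and with LXR at half-sites spaced by 4 bases (DR4).

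The libraries held 60363 to 72484 peaks each. Their genome-wide background was 1.12 to 2.26 tags per 200 bp, and the smallest summit called in a library held 6 to 9 tags, so a region with no peak is one that did not reach the threshold and not one known to be closed. Of the 12 AM marker genes, 10 had a region within 1 kb of a start in all 8 libraries, among them Siglecf, Marco and Pparg, and Chil3 and Krt79 had none. None of 5 T cell genes or 4 B cell genes had one in any library. Of 5 epithelial genes, Epcam, Scgb1a1 and Cdh1 had a start region in all 8 libraries and Sftpc and Krt8 had none, and the depth-scaled sum over the list ran from 107 to 140 in KO and from 112 to 149 in WT. Of 10 monocyte genes, 6 had a start region in all 8 libraries and Vcan and F13a1 had none. The depth-scaled summit tags summed over the list ran from 712 to 873 in KO and from 594 to 795 in WT. Itgam held the most tags of the list, 297, 290, 263 and 220 in KO and 197, 232, 263 and 171 in WT before scaling. Treml4 ran the other way, with 83, 71, 68 and 57 in KO and 85, 112, 94 and 99 in WT. Fcgr4 had no peak in WT replicate 4. The same sum over the AM list ran from 840 to 1197 in KO and from 895 to 1201 in WT. Of 6 eosinophil genes only Ear6 had a start region. Among 6 neutrophil genes S100a8 and Cxcr2 had one in all 8 libraries, and Ly6g, S100a9 and Retnlg had none. Camp had one only in KO replicates 1_2 and 1_3, with 20 and 12 tags. The part of these cell types in the results below was not tested, and in bulk libraries fewer cells with an open region cannot be told apart from less opening per cell. The deletion was not checked from the peaks, since no source used here gives the positions of the floxed exons.

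The sequences that carry the main observations are those under the 3 Cx3cr1-window regions that passed the test between genotypes, and those just before the annotated starts of Ccr1, Ccr2 and Ccr3, which ranged from strongly open to without a peak. They are given from the GRCm38 reference as 201 bases around the strongest summit, or as the 200 bases before the start on the gene's strand. Capitals mark matches on either strand to 1 of 7 patterns: PU.1 (GAGGAAGT), C/EBP (TTGCNNAA), AP-1 (TGANTCA), RUNX (TGTGGT), an E-box (CACGTG), DR1 and DR4, the last 2 with at most 2 mismatches over both half-sites.
Region between Cx3cr1 and Ccr8, lower in KO, chr9:120083200-120083400, plus strand: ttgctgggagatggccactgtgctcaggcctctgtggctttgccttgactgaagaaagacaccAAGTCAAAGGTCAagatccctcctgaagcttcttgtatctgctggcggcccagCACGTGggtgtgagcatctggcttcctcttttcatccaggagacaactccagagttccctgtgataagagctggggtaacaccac
Region in an intron of Csrnp1, lower in KO, chr9:119978986-119979186, plus strand: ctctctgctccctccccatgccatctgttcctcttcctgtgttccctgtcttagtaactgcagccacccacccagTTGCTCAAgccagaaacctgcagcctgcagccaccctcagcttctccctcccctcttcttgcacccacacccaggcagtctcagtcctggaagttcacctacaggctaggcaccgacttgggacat
Region between Csrnp1 and Xirp1, higher in KO, chr9:120002149-120002349, plus strand: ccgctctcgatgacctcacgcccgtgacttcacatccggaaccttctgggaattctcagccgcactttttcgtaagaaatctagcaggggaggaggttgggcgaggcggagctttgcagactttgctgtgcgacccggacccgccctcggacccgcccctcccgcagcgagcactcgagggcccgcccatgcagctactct
Before the start of Ccr1, chr9:123968693-123968892, minus strand: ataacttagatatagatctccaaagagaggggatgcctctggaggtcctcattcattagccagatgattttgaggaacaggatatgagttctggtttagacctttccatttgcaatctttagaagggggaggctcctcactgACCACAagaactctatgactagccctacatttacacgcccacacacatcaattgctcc
Before the start of Ccr2, chr9:124101750-124101949, plus strand: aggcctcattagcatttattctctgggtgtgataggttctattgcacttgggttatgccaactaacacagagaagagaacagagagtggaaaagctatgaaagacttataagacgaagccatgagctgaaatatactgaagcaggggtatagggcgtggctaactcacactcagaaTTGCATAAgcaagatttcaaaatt
Before the start of Ccr3, chr9:124021772-124021971, plus strand: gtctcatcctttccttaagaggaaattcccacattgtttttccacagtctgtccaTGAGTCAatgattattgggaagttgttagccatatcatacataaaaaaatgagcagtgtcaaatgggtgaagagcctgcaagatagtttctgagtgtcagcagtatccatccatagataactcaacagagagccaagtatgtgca

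The first sequence holds a DR1 match followed by an E-box match. It was the only one of the 53 member regions found in at least 2 libraries whose 201 bases held a DR1 match (1.89%), and 4.12% of all 72711 regions found in at least 2 libraries held one. DR4 matches were found in 4 member regions (7.55%, against 2.62% of all regions), and RUNX matches in 18 (34.0%, against 23.1%). PU.1 matches were found in 4 (7.55%, against 10.7%), C/EBP matches in 8 (15.1%, against 14.7%), AP-1 matches in 4 (7.55%, against 11.9%) and E-box matches in 3 (5.66%, against 5.33%). The patterns can share bases, as a C/EBP and a RUNX match can. A match describes letters and not binding.

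The 5 genes differed in how open their starts were, in both genotypes. The region at the Ccr1 start was among the stronger peaks of every library, Ccrl2 had an open start with a stronger region just before it, Cx3cr1 had a weak start region but strong regions inside the gene, Ccr2 had a start peak in 2 of 8 libraries, and Ccr3 had none within 1 kb. Levels are summit tags, the number of 200-bp tags stacked at the summit, worked back from each peak's fold and p-value. Where libraries are compared, the tags are scaled so that all libraries share the median of the 47499 regions called in every library.

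The Ccr1 start region (chr9:123968308-123968954, summit 24 bp before the start) held 246, 219, 190 and 196 tags in KO and 205, 260, 208 and 196 in WT. On the scaled scale the KO mean was 229 ± 13.4 (SD, n = 4) and the WT mean 201 ± 13.8 (SD, n = 4), and the genotypes overlapped. The log2 fold change, KO minus WT, was 0.18 ± 0.09 (SE; limma adjusted p = 0.153), which did not pass the threshold of 0.05. On average this region ranked at the 92.8th percentile of the peaks of a library by p-value, and it was the strongest of the Ccr1 window.

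The Ccrl2 start region (chr9:111056953-111057737) held 226, 229, 126 and 101 tags in KO and 171, 232, 142 and 196 in WT. The KO libraries were spread more widely than the genotypes were apart (log2 fold change 0.03 ± 0.13, adjusted p = 0.924). The region 1.87 kb before the start (chr9:111058998-111059755) was the strongest of all 60, at the 97.3rd percentile, with 425, 422, 342 and 298 tags in KO and 463, 587, 484 and 382 in WT. Scaled tags were 398 ± 34.5 in KO and 440 ± 7.41 in WT, and the lowest WT library (431) lay just above the highest KO library (427). The log2 fold change was -0.15 ± 0.08 (adjusted p = 0.192), and under quantile normalisation it passed the threshold at -0.23 (adjusted p = 0.0107). The groups did not overlap at 5 of the 41 member regions called in every library, against 16.2% of all such regions.

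The Cx3cr1 start region (chr9:120068145-120068509, in the 5′ UTR) was weak, with 30, 26, 27 and 31 tags in KO and 18, 38, 30 and 22 in WT. Its scaled mean was 31.4 ± 4.40 in KO and 25.0 ± 4.93 in WT, the genotypes overlapped, and the log2 fold change of 0.34 ± 0.19 did not pass (adjusted p = 0.257). A second region 605 bp before the nearest start (chr9:120068644-120069042) was a peak in 2 KO and 3 WT libraries, with 15 to 21 tags. The region of the window with the highest mean rank of peak strength within the lists, the 93.4th percentile, was chr9:119894592-119895544, which lay 173 kb from the Cx3cr1 start. This region is at the start of other genes, in an intron of Gm2449 0.0570 kb from its start and within 1 kb of the Wdr48 start. It held 203, 201, 173 and 190 tags in KO and 213, 264, 231 and 160 in WT, and the genotypes overlapped (log2 fold change 0.06 ± 0.09, adjusted p = 0.731). Inside the gene, the intronic region 9.40 kb from the start (chr9:120058595-120059148) had a slightly lower mean rank, the 92.5th percentile, but higher tag counts. It held 274, 248, 216 and 210 tags in KO and 238, 329, 279 and 260 in WT, with a log2 fold change of -0.01 ± 0.08. A second intronic region 13.3 kb in (chr9:120054665-120055304) had a log2 fold change of -0.01 ± 0.09, and a region in the 3′ UTR (chr9:120049366-120049812) one of 0.13 ± 0.11, and neither passed.

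The Ccr2 start region (chr9:124101777-124102057) was a peak only in KO replicate 3, with 17 tags, and in WT replicate 3, with 15. A region inside the gene, 1.25 kb past the nearest of its annotated starts and in the 5′ UTR (chr9:124103175-124103654), was open in all 8 libraries. It held 37, 39, 32 and 36 tags in KO and 50, 65, 59 and 40 in WT. Every KO library (36.6 to 43.3 scaled tags) lay below every WT library (45.7 to 54.5), but the log2 fold change of -0.33 ± 0.16 did not pass across all regions (adjusted p = 0.166). The strongest region of the window was in an intron near the end of Ccr2 (chr9:124112563-124112966), with 103, 85, 105 and 81 tags in KO and 108, 123, 139 and 103 in WT. Its log2 fold change was -0.12 ± 0.12 (adjusted p = 0.535).

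No peak summit of any library lay within 1 kb of the Ccr3 start. The nearest region, 1.89 kb before it (chr9:124019829-124020278), held 27, 27, 29 and 24 tags in KO and 30, 47, 49 and 27 in WT, and the genotypes overlapped (log2 fold change -0.25 ± 0.18, adjusted p = 0.402). The strongest region lay 16.0 kb from the start, beyond the end of the gene (chr9:124037663-124038163), with 153, 150, 147 and 124 tags in KO and 122, 190, 159 and 125 in WT. After scaling the KO libraries (148 to 166) lay above the WT libraries (118 to 146), and the log2 fold change of 0.18 ± 0.10 did not pass (adjusted p = 0.234).

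**Figure D1:**
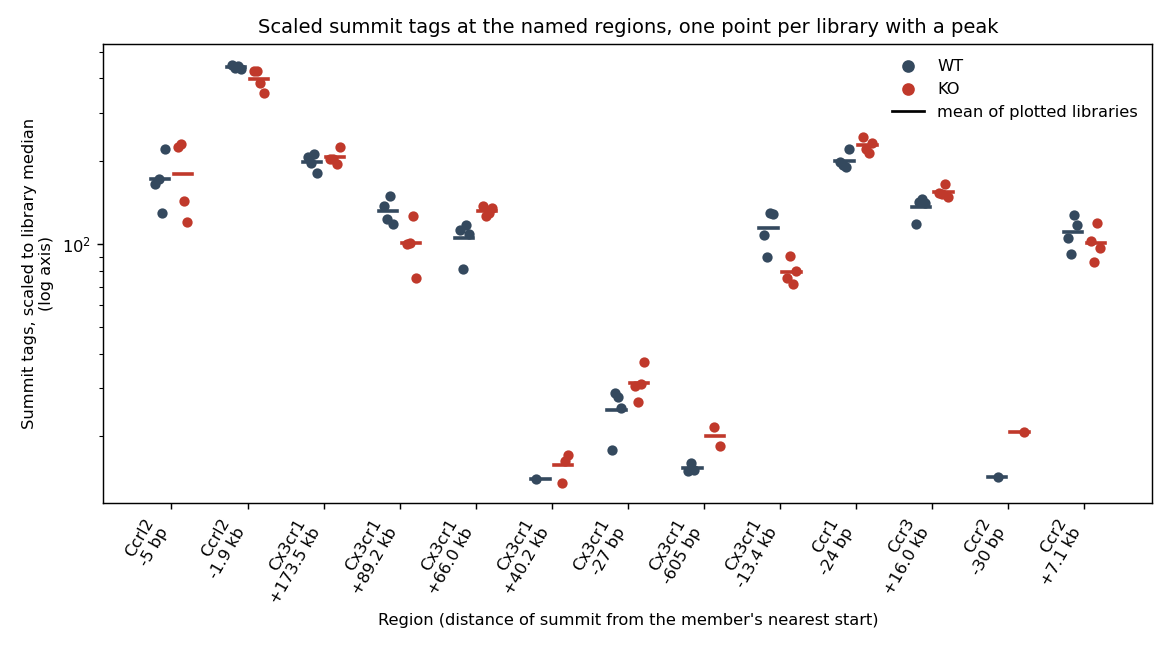
Scaled summit tags (log axis) at 13 named regions of the 5 windows, 1 point for each library with a peak, WT in dark blue and KO in red, with a bar at the mean of the plotted libraries. Most regions overlap between genotypes, and the region at the Ccr2 start has 1 point for each genotype.

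Loss of RXRα and RXRβ was compared with WT at the 41 member regions that had a peak in all 8 libraries. Only regions of the Cx3cr1 window passed the test, 2 lower and 1 higher in KO, and no region of the Ccrl2, Ccr1, Ccr3 or Ccr2 windows did. Among all 47499 regions, 7.03% were called lower and 5.81% higher, so the members' 3 calls in 41 (7.32%) were not more than the 12.8% of all regions called. The median log2 fold change was 0.032 over the members and 0.043 over all regions, and the median absolute change was 0.15 and 0.16. At an unadjusted p under 0.05, 7 of the 41 passed (17.1%), against 26.2% of all regions.

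The region with the largest called change lay between Cx3cr1 and Ccr8 (chr9:120083070-120083630), 13.4 kb before the nearest Cx3cr1 start and 8.81 kb from the start of Ccr8, the receptor for CCL1 and CCL8 in mice. It is the region whose sequence holds the DR1 match. Its summit held 75, 89, 63 and 67 tags in KO and 111, 120, 141 and 114 in WT. Scaled tags were 79.3 ± 8.19 in KO and 114 ± 19.1 in WT, and only KO replicate 1_3 (90.4) reached the lowest WT library, replicate 1_3 (89.8). The log2 fold change was -0.51 ± 0.12 (limma adjusted p = 0.00249). It passed the threshold under all 18 alternatives, with log2 fold changes from -0.62 to -0.40 and adjusted p from 3.87e-04 to 0.0372. Whether it bears on either neighbouring gene was not tested.

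The second lower region lay in an intron of Csrnp1 (chr9:119978903-119979266), a gene for a nuclear protein, 89.2 kb from the Cx3cr1 start. It held 100, 99, 111 and 63 tags in KO and 141, 165, 163 and 104 in WT, and the genotypes overlapped after scaling through KO replicate 2 (126). Its log2 fold change was -0.41 ± 0.12 (adjusted p = 0.0143). The call was lost without KO replicate 3 (-0.28, adjusted p = 0.124) and without WT replicate 3 (-0.35, adjusted p = 0.0795). It was also lost at a similar fold with libraries scaled by background depth (-0.47, adjusted p = 0.0761) and in the fit of regions in at least 4 libraries with missing values set to the smallest called summit (-0.41, adjusted p = 0.0873), and over all alternatives the adjusted p ran from 2.19e-04 to 0.124.

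The region higher in KO lay between Csrnp1 and Xirp1 (chr9:120001847-120002628), 66.0 kb from the Cx3cr1 start. It held 138, 124, 115 and 113 tags in KO and 116, 108, 127 and 96 in WT, which after scaling put every KO library (126 to 138) above every WT library (80.9 to 117). Its log2 fold change was 0.35 ± 0.11 (adjusted p = 0.0270). The call was lost without KO replicate 1_2 (0.33, adjusted p = 0.0759), KO replicate 3 (0.34, adjusted p = 0.0661) or WT replicate 1_3 (0.23, adjusted p = 0.176), and with libraries scaled by background depth (0.29, adjusted p = 0.435). It was also lost with replicates 1_2 and 1_3 averaged (0.31, adjusted p = 0.0738) and in the fit of regions in at least 4 libraries (0.35, adjusted p = 0.0756).

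Both of the latter regions are members through 1 annotated Cx3cr1 transcript that runs to position 119901616, over Csrnp1, Xirp1, Ttc21a and Gorasp1. The other 2 transcripts span 120048683 to 120069879, 21.2 kb. A window around these alone held 9 of the 27 regions, 7 of them in all 8 libraries, and its 1 call was the region between Cx3cr1 and Ccr8. This narrower window was chosen after the data were seen. The scaling also mattered for the balance of calls, since with background depth in place of the median 22.4% of the calls over all regions were higher in KO, against 45.3% in the reported fit. Under that scaling the region between Cx3cr1 and Ccr8 was the only member called.

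**Figure D2:**
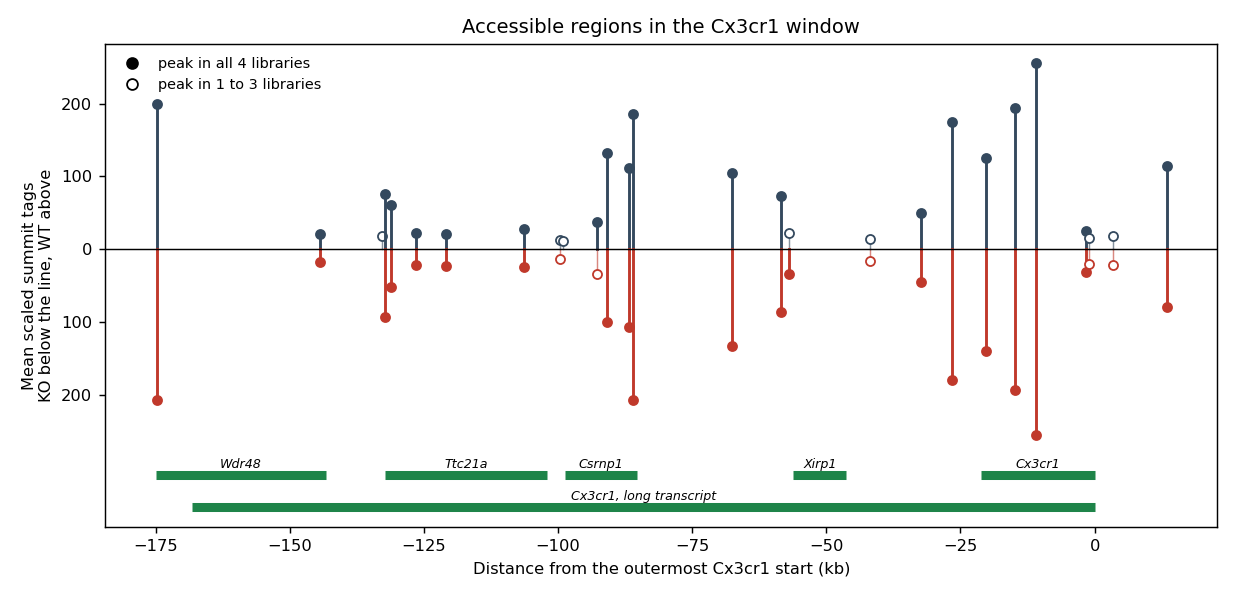
Mean scaled summit tags in the Cx3cr1 window against distance in kb from the outermost Cx3cr1 start, WT above and KO below the line, filled points for peaks in all 4 libraries of a genotype and open points for 1 to 3, with genes as green bars. The region at the far right, beyond the gene, is lower in KO (79.3 against 114), and the long transcript covers most of the other regions.

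The next closest region to a call lay 16.6 kb before the Ccrl2 start (chr9:111073978-111074330), with 69, 61, 56 and 60 tags in KO and 51, 51, 54 and 59 in WT. Its log2 fold change of 0.40 ± 0.15 did not pass (adjusted p = 0.0672). Without WT replicate 4 it was 0.54 and passed (adjusted p = 0.0117), and without both WT replicate 4 and KO replicate 2 it was 0.56 and passed (adjusted p = 0.0166).

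**Figure D3:**
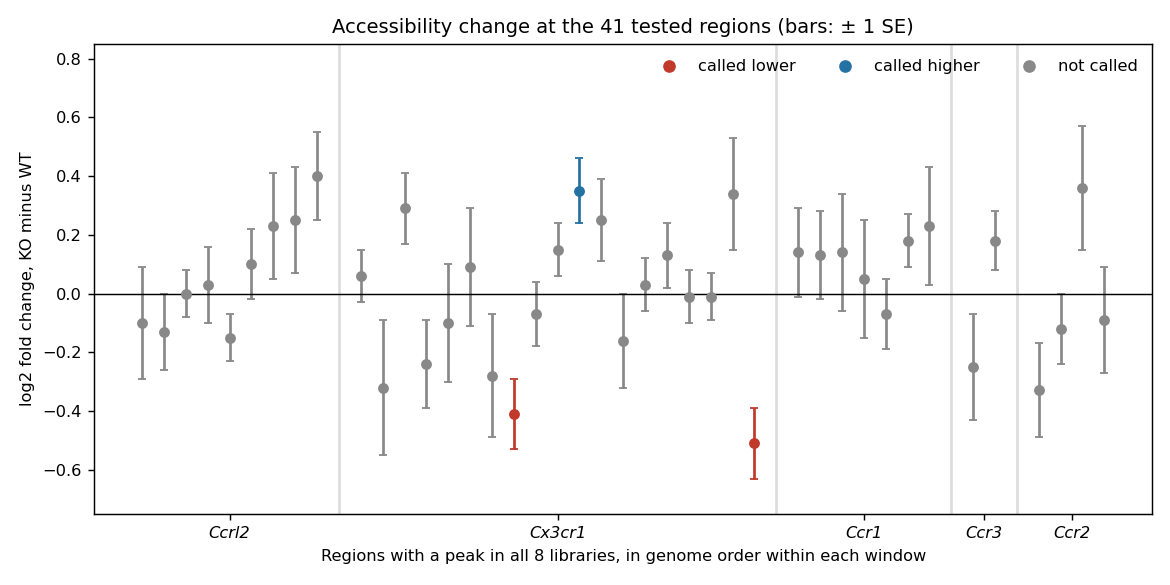
Log2 fold change, KO minus WT, with its SE at the 41 member regions called in every library, in genome order within each gene's window. The 3 called regions, 2 lower in red and 1 higher in blue, all lie in the Cx3cr1 window, and the values run from -0.51 to 0.40.

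Presence of a peak was also compared. WT-only regions, with a peak in all 4 WT libraries and no KO library, made up 0.820% of the regions found in at least 2 libraries, and KO-only regions 0.285%. Of the 53 such member regions 1 was WT-only, which is not described here, and 0 were KO-only.

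At 1 region of the Cx3cr1 window (chr9:120027865-120028173, 40.2 kb from the start) a peak was called in 3 KO libraries with 13, 14 and 14 tags and in 1 WT library with 14. These counts lie near the smallest called summits. With missing values set to the smallest called summit, the region did not pass (log2 fold change 0.62 ± 0.31, limma adjusted p = 0.247). How common such regions are in the whole data set was not counted. The remaining partly called regions did not separate the genotypes in full. Of the 60 regions, 7 were found in a single library, with 10 to 24 tags.

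**Figure D4:**
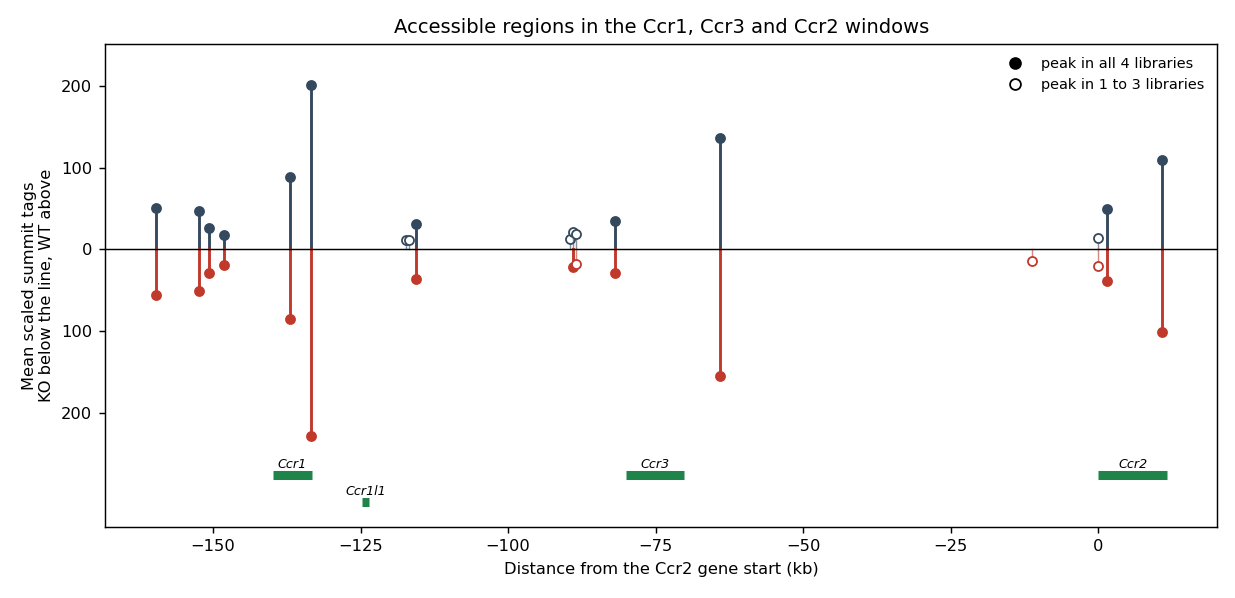
Mean scaled summit tags in the Ccr1, Ccr3 and Ccr2 windows against distance in kb from the Ccr2 gene start, WT above and KO below the line, filled points for peaks in all 4 libraries of a genotype and open points for 1 to 3, with genes as green bars. The tallest region is at the Ccr1 start, and the region at the Ccr2 start is open in 1 library of each genotype (regions past the end of Ccr2 are not shown).

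The number of peaks in the 5 windows together was 45, 53, 46 and 51 in KO and 49, 54, 52 and 47 in WT. The means of 48.8 ± 3.86 and 50.5 ± 3.11 (SD, n = 4 each) differed by less than the spread (exact two-sided permutation test, p = 0.543, where the smallest p possible is 0.0286). By gene, the mean number per library in KO and WT was 9 and 9.25 for Ccrl2, 24.0 and 24.2 for Cx3cr1, 7 and 7.75 for Ccr1, 3.75 and 3.75 for Ccr3, and 5 and 5.50 for Ccr2. The exact permutation p was 1 for Ccrl2, Cx3cr1 and Ccr3, 0.429 for Ccr1 and 0.657 for Ccr2, and the Benjamini-Hochberg adjusted p over these 6 comparisons was 1 for each.

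Averaged over the regions of a gene's window, none of the 5 receptors passed the test. The mean log2 scaled tags of the Ccrl2 window were 6.43 ± 0.0759 (SD, n = 4) in KO and 6.36 ± 0.0985 (SD, n = 4) in WT, a difference of 0.07 ± 0.07 (SE; limma adjusted p over 16106 genes = 0.539). The difference was -0.02 ± 0.06 for Cx3cr1 (adjusted p = 0.857), 0.11 ± 0.08 for Ccr1 (0.380), -0.04 ± 0.09 for Ccr3 (0.831) and -0.05 ± 0.08 for Ccr2 (0.748). Of all genes, 4.99% were called lower and 5.92% higher. No unadjusted p of the 5 was under 0.05 (0.176 to 0.745), and no alternative called any of them.

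By library the Ccr1 window ran from 5.59 to 5.81 in KO and from 5.49 to 5.69 in WT, the Cx3cr1 window from 6.14 to 6.31 and from 6.21 to 6.32, and the Ccr2 window from 5.23 to 5.42 and from 5.30 to 5.42. The ranges of the genotypes overlapped in each.

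The genes whose window accessibility followed each member most closely over the 8 libraries, among 9751 genes on other chromosomes with at least 3 regions, are given as a description. They were Snapc4 for Ccrl2 (Pearson r = 0.968), Zfp663 for Cx3cr1 (0.939), Itsn1 for Ccr1 (0.977), Hnrnpdl for Ccr3 (0.897) and Slc35a3 for Ccr2 (0.934). The next were Spcs2 (0.964) and Cbx2 (0.962) for Ccrl2, Per2 (0.931) and Kif19a (0.922) for Cx3cr1, and Atp5o (0.969) and Zfp819 (0.966) for Ccr1. For Ccr3 they were Hist3h2a and Hist3h2ba, which share their regions (0.884 each), and for Ccr2 they were Cd180 (0.923) and Tmem165 (0.918). A gene's values in 1 library share its depth and scaling, and these are the highest of many values compared.

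Other chemokine receptor genes were read in the same way. The list of 20 genes had 74 regions with a peak in all 8 libraries. Of all its 115 regions, 10 were also member regions. Of the 74, 5 were called lower and 4 higher in KO, together 12.2% against 12.8% of all regions. The median log2 fold change was 0.01. Cxcr4, the receptor for CXCL12 that holds leukocytes in bone marrow, was higher at both an intronic region near its start (chr1:128591856-128592772, 0.70 ± 0.13, adjusted p = 1.55e-04) and a region 16.0 kb away (0.68 ± 0.15, adjusted p = 0.00117). The first held 110, 74, 80 and 78 tags in KO and 59, 69, 67 and 48 in WT. Cxcr1 and Cxcr2, the receptors for neutrophil-attracting chemokines, each had 1 higher region (0.49 ± 0.16 and 0.80 ± 0.20, adjusted p = 0.0342 and 0.00526). The Cxcr1 call was lost under 7 of 18 alternatives and the Cxcr2 call under 2. The called Cxcr2 region lay 13.4 kb from the Cxcr2 start. The region at that start held 42, 55, 49 and 40 tags in KO and 66, 75, 69 and 63 in WT. These tags are not scaled, and no region of the Cxcr2 window was called lower. Averaged over its window, Cxcr2 did not pass (0.07 ± 0.09, limma adjusted p = 0.651).

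The lower regions lay in the windows of the scavenger receptor gene Ackr3, of Ccr6, Cxcr3 and Cxcr5, and at the region shared with Cx3cr1 before Ccr8. The Ackr3 region (chr1:90234492-90235014) held 16, 14, 18 and 10 tags in KO and 67, 89, 73 and 62 in WT, without overlap (-2.09 ± 0.18, adjusted p = 3.89e-12). It was the largest change among the called regions of both gene lists. The Ccr6 region in its 5′ UTR (chr17:8255474-8256093) fell by 0.62 ± 0.12 on the log2 scale (adjusted p = 3.63e-04), while a second region of its window (chr17:8271146-8271505) was a peak in all 4 KO libraries, with 16, 22, 20 and 27 tags, and in no WT library. Cxcr5 fell by 0.69 ± 0.14 at an intronic region (adjusted p = 5.82e-04). Cxcr3 fell by 0.41 ± 0.13 at a region near its start (adjusted p = 0.0304), a call lost under 8 of 18 alternatives. The Cxcr3 gene lies on chromosome X, and the sample titles do not give the sex of the mice. A difference in sex balance there cannot be told apart from the genotype. Averaged by gene, Ackr3 and Cxcr3 were called, each from 1 region.

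Ligands of the 5 receptors were also followed. The 12 genes had 42 regions with a peak in all 8 libraries, of which 4 were called higher and 1 lower in KO, with a median log2 fold change of 0.10. These calls made up 11.9% of the list's regions, against 12.8% of all regions. The higher regions were 1 in the shared window of Ccl7 and Ccl11 (0.72 ± 0.21, adjusted p = 0.0134), 1 in the Ccl12 window (0.65 ± 0.21, adjusted p = 0.0315), 1 at the Ccl3 start (0.48 ± 0.13, adjusted p = 0.00822) and 1 shared by Ccl6 and Ccl9 (0.34 ± 0.11, adjusted p = 0.0231). The Ccl3 region held 120, 106, 83 and 73 tags in KO and 67, 83, 98 and 68 in WT. The lower region was in an intron of Cx3cl1, the CX3CR1 ligand (-0.35 ± 0.12, adjusted p = 0.0401). With libraries scaled by background depth all 5 calls were lost, at adjusted p from 0.0762 to 0.441. Over the 18 alternatives the Ccl12 call and the Cx3cl1 call were each lost under 9. The call shared by Ccl6 and Ccl9 was lost under 8. The Ccl3 call and the call shared by Ccl7 and Ccl11 were each lost under 4. Averaged by gene, Ccl7 (0.40 ± 0.08, adjusted p = 0.00701) and Ccl11 (0.36 ± 0.09, adjusted p = 0.0237), which share regions, were called higher.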

How the data were processed

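ATAC-seq peak lists from 4 KO and 4 WT libraries were used, with groups and replicate names from the sample titles. Per the study's methods, the authors used Cutadapt for adapter trimming, Bowtie2 for alignment to mm10, and Picard and samtools to drop duplicates, then ran MACS3 on each library alone (200-bp extension, q-value 0.05). The deposited lists give each peak's position, a display score (not used), the fold, a ratio of summit pileup to local background with 1 added to each, and the summit position, and the authors also give the −log10 of a p-value and of a q-value. The lists hold no read counts, so the authors' count test was not fitted, and a deeper library reaches the threshold with a smaller enrichment.

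Whole tags were recovered from the fold and the Poisson p-value, and gave back 100% of the deposited p-values within a relative error of 1e-05 in each library. Peaks were merged across libraries where they shared a base. log2(tags + 0.5), centred on the library median, was tested with limma 3.58.1 in R 4.3.3 over all regions with a peak in all 8 libraries, and as means over gene windows, with Benjamini-Hochberg adjustment over all features. The fold changes are on this scale, which understates changes of low regions. The fit was also run on simulated data, and the outcome is not given here. Peaks per library were compared by exact two-sided permutation. Regions without a peak in all 8 libraries were described by presence.

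The members and gene lists were chosen with earlier results of these data known. Named regions were those at a member's start, called regions, regions in 3 or 4 libraries of one genotype and at most 1 of the other, and the strongest of each window, and other regions were given to complete the windows. Other genes named were those lying in a window, list genes with a called or one-sided region, and the 3 genes most like each member. Sequences were read from GRCm38, and gene models were GENCODE M21, basic set for starts and annotation. Alternatives covered scaling, pseudocount, filters, peak threshold, merging, window size, averaging of replicates 1_2 and 1_3, the replicate number as a block, and each library left out. Some regions of 1 window are counted but not reported here one by one.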

Additional observations from a re-analysis of the deposited data

Results flagged for a closer look

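In 5 of the 44 genotype groups of 4 libraries examined, 1 library stood far from the other 3, its gap to the nearest exceeding the share of the range that Dixon's 95% test allows. Chance alone flags about 1 group in 20 where values are untied and groups are separate. The groups here share windows and include tied peak counts, so 5 of 44 cannot be read against that rate. In the strongest Ccr3 region, 16.0 kb from the start, WT replicate 1_2 lay at 6.89 on the log2 scaled tag scale and the other WT libraries at 7.14 to 7.19. In the mean over the Ccr3 window, KO replicate 2 lay at 6.22 and the other KO libraries at 6.02 to 6.03. The number of peaks was 10 in the Ccrl2 window of WT replicate 4 against 9 in the other WT libraries, 22 in the Cx3cr1 window of WT replicate 4 against 25, and 3 in the Ccr3 window of KO replicate 1_2 against 4. In each of these 3 peak counts the other libraries of the group were tied, so a difference of any size was flagged.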

How the results depend on the processing

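The call at the region between Cx3cr1 and Ccr8 kept its direction and its side of the threshold under all 18 alternatives, and no member gene was called under any of 19. The counts of called member regions were less stable. With background depth as the scaling, 1 was lower and 0 were higher in KO, and 0 were higher with replicates 1_2 and 1_3 averaged or with regions in at least 4 libraries and missing values set to the smallest called summit. Leaving out 1 library gave 1 to 2 lower and 0 to 2 higher. Over the 3 replicate numbers that both genotypes share, 3 were higher with the replicate number as a block (added calls at the Ccr1 start, 0.26, adjusted p = 0.0270, and 16.6 kb before the Ccrl2 start, 0.56, adjusted p = 0.00898) and 2 without it, a setting chosen after the data were seen. The same-numbered libraries' deviations correlated at 0.0555, 0.116 and 0.0368, not all over 0.1, so the numbers were not taken as pairs, although each of the 3 KO libraries correlated best with the WT library of its own number. On the same libraries, 6904 of all regions were called with the block and 5272 without it. Whether the numbers mark shared batches was not tested.

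Sign changes were limited to values that passed no test. The Ccrl2 start region was -0.03 under depth scaling, -0.01 under quantile normalisation, -0.11 with 1_2 and 1_3 averaged and from -0.11 to 0.20 when 1 library was left out. The Ccrl2 window mean was -0.06 within 5 kb. The Cx3cr1 window mean was 0.00 with regions of at least 20 mean tags and within 5 kb, 0.02 over the shared numbers with and without the block, and from -0.04 to 0.02 when 1 library was left out, and that of Ccr3 then ran from -0.11 to 0.04. Lists cut to equal length gave a difference in peaks of 0.750 over the 5 windows and 1 for Cx3cr1, against -3.17 to -0.500 and -1.25 to 0.417 when 1 library was left out. Within 5 kb there were 0 WT-only member regions, against 1 within 20 kb. Depth limits the weakest regions, since no summit under 6 tags could be called.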
